A study of Mytilus galloprovincialis with 12 samples.

Results

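Of the 1816 cDNA clones of the mussel array that had deposited log2 ratios, 107 met a rule on the 3 treatments of the study. A clone was taken when its ratio of treated to vehicle RNA had one sign on all 4 arrays of mussels exposed to chlorpyrifos and then injected with 17β-estradiol (CHP/E2), when the mean of these 4 ratios was at least 0.2 in absolute value, and when the means over the 4 arrays of chlorpyrifos alone (CHP) and the 4 arrays of 17β-estradiol alone (E2) were both under 0.2. The members made up 5.89% of the clones. With CHP/E2, 52 lay above vehicle and 55 below it. The members were thus chosen by their deposited ratios in all 3 treatments, so every ratio given here is a description, and no test of these ratios is independent of the choice. The working name of the set, clones changed only by the combined treatment, goes further than the rule. The rule sets limits on means and does not test a difference between treatments. The clones are therefore called members, by the rule. A limma test of CHP/E2 minus CHP called 0 of the 107, against 0.165% of all clones. That of CHP/E2 minus E2 called 0, against 0.33% of all clones, and nothing is read from these counts.

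All animals were female Mytilus galloprovincialis collected in October. Every array carried digestive gland RNA from 1 treated pool and 1 vehicle pool, each of 6 tissue pieces. CHP/E2 mussels lived for 3 days, by the labels, in water with chlorpyrifos at 4.5 mg/l and were injected with 25 pmol of E2 into the posterior adductor muscle. CHP mussels had the same concentration for a labelled 4 days, whereas the study's methods describe one length of exposure for both and an injection of the ethanol vehicle. E2 mussels had the injection of 25 pmol without the pesticide. The vehicle mussels, whose RNA shared each array with that of a treated pool, were kept for 4 days in 0.02% DMSO and received, after 3 days, 50 µl of artificial sea water with 0.05% ethanol. There were 4 arrays per treatment and the treated RNA carried Cy5 on all but 3 of them, CHP/E2 replicate 4, CHP replicate 3 and E2 replicate 4, on which it carried Cy3. The labels call the arrays of a treatment replicates, but the names of the scans give the same treated pool number for CHP/E2 replicates 3 and 4, and likewise for E2 replicates 2 and 4. The spread between such arrays may be technical. Vehicle pools also carry numbers in the scan names, 1, 2 and 3 for replicates 1, 2 and 3 of both CHP/E2 and E2. CHP replicates 1, 2 and 4 had vehicle pools 2, 3 and 3, and the other arrays had no vehicle pool number.

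Chlorpyrifos is an organophosphate insecticide. Its oxon, made from it in animals, blocks acetylcholinesterase, the enzyme that ends the signal of acetylcholine at synapses. 17β-Estradiol is the main estrogen of vertebrates, where it acts through nuclear receptors that bind DNA and through faster signals at the cell membrane. The digestive gland of a bivalve takes up and digests food inside its cells, in a large lysosomal system, stores lipid and glycogen, and is a main site for the handling of pollutants. In pooled tissue of this kind, fewer cells of a type and less RNA per cell cannot be told apart. The files name each clone by an ID only, and 0 of the 1920 IDs on the array occurred in the RefSeq gene table, so the members carry no gene names here and could not be ordered by function. For the same reason the tissue could not be checked against its markers.

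One CHP/E2 array stood apart from the others over the whole array. Over all 1816 clones the ratios of CHP/E2 replicates 1, 2 and 3 correlated with each other at r = 0.47 to 0.73, whereas replicate 4, the array with exchanged dyes, correlated with them at -0.26, -0.35 and -0.08. Replicate 4 correlated at 0.68 with CHP replicate 3 and at 0.31 with E2 replicate 4, which also had exchanged dyes. Within its own treatment, CHP replicate 3 correlated with CHP replicates 1, 2 and 4 at 0.65, -0.28 and 0.82. E2 replicate 4 correlated with E2 replicates 1, 2 and 3 at 0.14, 0.43 and 0.23. CHP replicate 2 also correlated negatively with CHP replicate 4, at -0.25. These correlations run across clones, which are not independent replicates. The rule asks for one sign on all 4 arrays, and a clone that replicate 4 turned the other way could not be a member. With replicate 4 left out, 187 clones met the rule, and 93 of the 107 members were among them, while leaving out replicate 1, 2 or 3 gave 157, 158 and 157 clones. Whether the array of replicate 4 is as labelled could not be settled from the files, and every CHP/E2 mean that includes it carries this doubt. The part that the dyes played in the members' ratios was not tested. Depth on an array is its signal over background, which had a median of 1.48 to 3.29 for treated and of 1.15 to 3.92 for vehicle RNA, and the number of arrays, 4 per treatment, limits the precision.

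The path from 1816 clones to 107 shows what each part of the rule removed. One sign on all 4 CHP/E2 arrays was found in 419 clones, 213 above vehicle and 206 below. A mean of at least 0.2 left 285, of which 161 were above and 124 below. The limit on CHP then left 140 clones and the limit on E2 left the 107 members. Of the 178 clones that passed the CHP/E2 part and were not members, 86 had a mean past the limit with CHP alone, 33 with E2 alone and 59 with both. When the rule was turned to ask for the other treatments alone, 122 clones met it for CHP and 67 for E2. The median absolute mean was 0.28 for the CHP/E2 members, 0.29 for the CHP clones and 0.28 for the E2 clones, and these are values that the rule itself sets.

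The limit ran through a dense part of the distribution. Just inside it were Myt01-019F07, with a CHP/E2 mean of -0.20, and Myt01-018E05, with 0.20. Just outside were Myt01-020B11 and Myt01-016D02, with CHP/E2 means of 0.199 and -0.199. On the side of CHP, Myt01-001H02 and Myt01-012B07 were members with a CHP mean of 0.196 each, whereas Myt01-013H11 and Myt01-006A12 were left out with -0.20 and 0.203. On the side of E2, Myt01-008E07 and Myt01-010E04 were members with E2 means of -0.199 and -0.198, and Myt01-012E05 and Myt01-003A01 were left out with 0.211 and -0.216. Myt01-019G03 had the same E2 mean as Myt01-010E04.

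**Figure D1:**
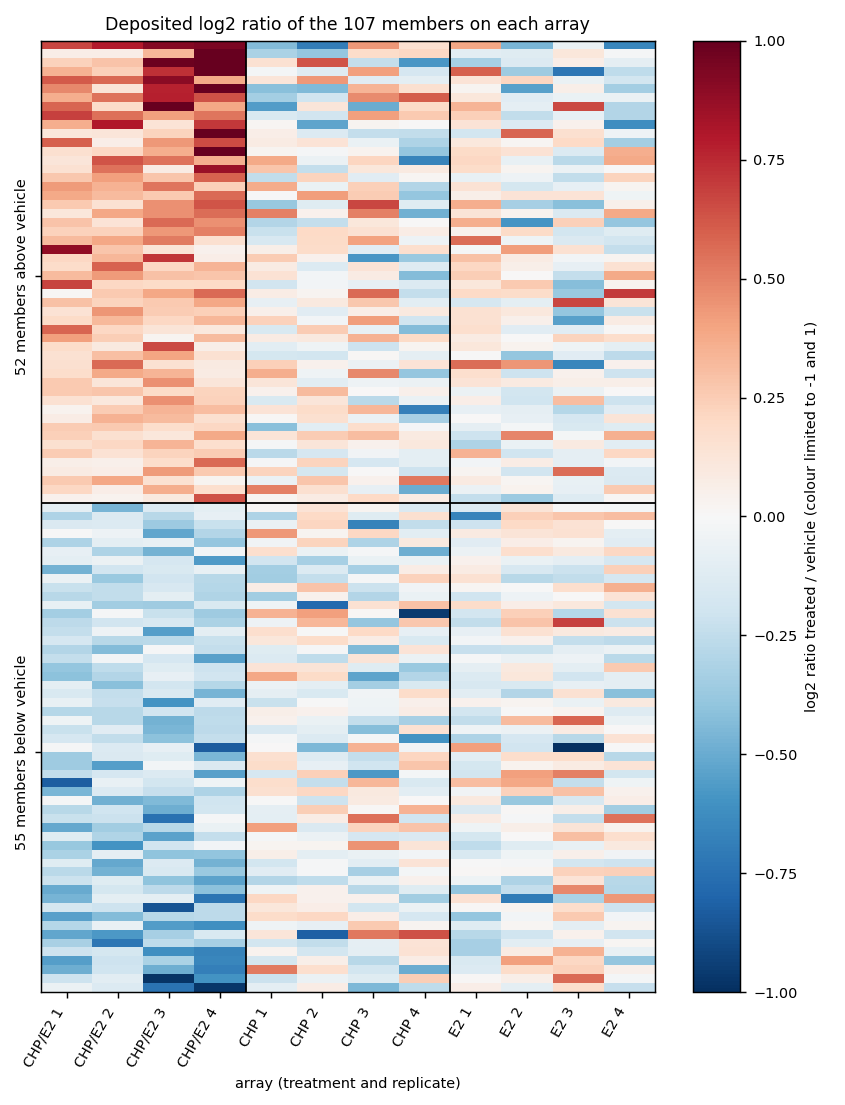
Deposited log2 ratio of treated to vehicle RNA for the 107 members (rows, sorted by the CHP/E2 mean) on the 12 arrays (columns, 4 per treatment), with the colour scale limited to -1 and 1. The 52 members above and the 55 below vehicle keep one colour over the CHP/E2 columns, as the rule requires, while colours mix over the CHP and E2 columns.

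The ratios of the members with CHP/E2 were small. The 52 members above vehicle had a median CHP/E2 mean of 0.33, with a range of 0.20 to 0.83. The same 52 clones had a median of -0.01 for the CHP mean and of -0.01 for the E2 mean. The 55 members below vehicle had a median CHP/E2 mean of -0.27, with a range of -0.48 to -0.20, against medians of -0.03 with CHP and -0.01 with E2. Over all 1816 clones the median absolute CHP/E2 mean was 0.14. The highest member thus reached 1.78 times the vehicle level, and the members below vehicle spanned a narrower range than those above.

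Both groups of members were spread fairly evenly over the 4 CHP/E2 arrays, with somewhat larger values on replicates 3 and 4. The median of the 52 members above vehicle was 0.24, 0.26, 0.34 and 0.35 on replicates 1 to 4. The median of the 55 below was -0.25, -0.21, -0.26 and -0.28. Over all clones the median absolute ratio was 0.175, 0.165, 0.21 and 0.245 on the same arrays. The largest absolute ratio of a member fell on replicates 1 to 4 in 16, 23, 30 and 38 clones. These were 15.0%, 21.5%, 28.0% and 35.5% of the members, against 18.8%, 18.6%, 24.1% and 38.4% of all clones. The mean of replicates 3 and 4 exceeded that of replicates 1 and 2 in absolute value in 70 members, or 65.4%, against 51.2% of all clones. Ratios of opposite sign cancel in such means over all clones, but members have one sign by the rule. Nothing is read from this difference. Without replicate 4 the median was 0.30 for the members above vehicle and -0.26 for those below, and 93 of the 107 kept an absolute mean of at least 0.2. All 4 CHP/E2 ratios were 0.2 or more in absolute value in 16 members, 12 above vehicle and 4 below, as in 4.79% of all clones.

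Myt01-010E04 was the member farthest above vehicle. Its log2 ratio was 0.67, 0.795, 0.92 and 0.94 with CHP/E2, -0.43, -0.69, 0.43 and 0.16 with CHP, and 0.385, -0.455, -0.065 and -0.655 with E2. The 4 CHP/E2 values stood above all 8 values of the single treatments. The CHP mean of -0.13 ± 0.52 (SD, n = 4) came from arrays that lay on both sides of vehicle, as did the E2 mean of -0.20 ± 0.46, whereas the CHP/E2 mean was 0.83 ± 0.13. Both channels of this clone were above background on the CHP/E2 arrays, and its CHP/E2 mean was 0.75 when the ratios were recomputed from the scanner intensities.

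Myt01-005C09 had 0.61, 0.575, 0.905 and 0.375 with CHP/E2, 0.12, 0.435, -0.11 and -0.095 with CHP, and 0.135, 0.215, -0.07 and -0.18 with E2. The lowest CHP/E2 value lay below the highest CHP value, so that these arrays overlapped, while all E2 values lay below the CHP/E2 values. Its CHP/E2 mean was 0.62 ± 0.22 (SD, n = 4). Myt01-017B12 had 0.685, 0.55, 0.41 and 0.535 with CHP/E2, -0.155, -0.19, 0.41 and 0.265 with CHP, and 0.235, -0.245, -0.085 and -0.295 with E2. CHP/E2 replicate 3 and CHP replicate 3 had the same ratio, and the other CHP/E2 arrays were higher than every CHP array. This clone was among the brightest of the array, at percentile 98.7 of the vehicle channel.

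Several members above vehicle owed much of their mean to replicates 3 and 4. Myt01-012B01 had 0.23, 0.285, 0.98 and 1.01 on the CHP/E2 arrays, against 0.155, 0.63, -0.235 and -0.58 with CHP. Myt01-011A01 had 0.345, 0.24, 0.73 and 1.165 with CHP/E2, against -0.02, -0.12, 0.41 and -0.17 with CHP. Its CHP/E2 replicate 2 was -0.19 as recomputed from the scanner intensities. Myt01-008E07 had 0.48, 0.125, 0.77 and 1.085 with CHP/E2, against -0.42, -0.44, 0.34 and 0.16 with CHP. In all 3 clones the CHP/E2 arrays differed among themselves by more than their mean. With E2 these clones had -0.335, -0.135, 0.065 and -0.09 in Myt01-012B01, 0.595, -0.355, -0.72 and -0.255 in Myt01-011A01, and 0.03, -0.545, 0.06 and -0.34 in Myt01-008E07. The E2 arrays of Myt01-011A01 thus spread more widely than its CHP/E2 arrays. Myt01-016F08, with 0.58, 0.185, 1.135 and 0.39, had its highest value on replicate 3, and Myt01-009E04, with 0.36, 0.80, 0.135 and 0.705, had its lowest value there. Myt01-001C01 was steadier with CHP/E2, at 0.36, 0.545, 0.78 and 0.635, but had -0.34, -0.20, 0.47 and 0.605 with CHP. The steadiest member of all, Myt01-008C11, had 0.26, 0.275, 0.195 and 0.225 with CHP/E2, which gave 0.24 ± 0.04 (SD, n = 4).

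Myt01-019H05 ranked next to Myt01-010E04 by its mean, and 1 array set that rank. Its CHP/E2 ratios were 0.07, 0.065, 0.335 and 2.3, which gave 0.69 ± 1.08 (SD, n = 4). Without replicate 4 the mean was 0.16, under the limit of the rule. This clone was not above background in either channel on any of the 12 arrays, so no fold is given for it, and 6 of its 8 CHP/E2 spots lay above vehicle.

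**Figure D2:**
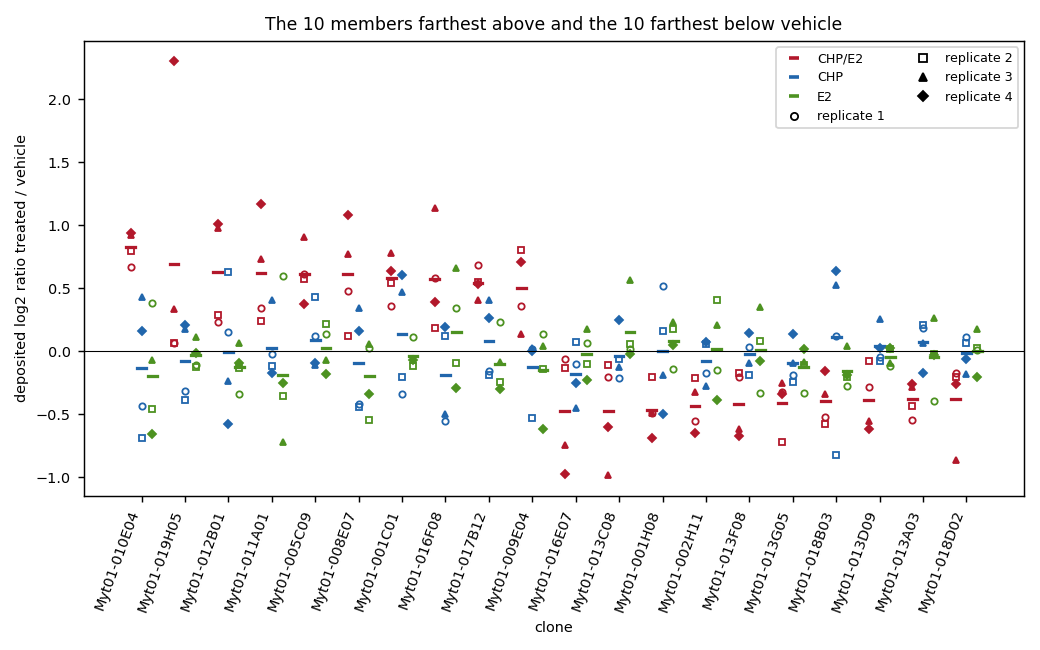
Deposited log2 ratio of treated to vehicle RNA (y axis) for the 10 members farthest above and the 10 farthest below vehicle by the CHP/E2 mean (x axis). Symbols are single arrays, with the shape giving the replicate, and short bars are means of 4 arrays. The single CHP/E2 value of 2.3 is replicate 4 of Myt01-019H05, and the 4 CHP/E2 values of Myt01-010E04 lie between 0.67 and 0.94.

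Below vehicle, 5 of the 10 members farthest from it had their lowest ratios on replicates 3 and 4. Myt01-016E07 had CHP/E2 ratios of -0.06, -0.135, -0.74 and -0.97, against -0.10, 0.075, -0.45 and -0.255 with CHP and 0.065, -0.10, 0.175 and -0.23 with E2. Its CHP/E2 mean of -0.48 ± 0.45 (SD, n = 4) was the lowest of all members, and its treated channel was above background on 1 of these 4 arrays. Myt01-013C08 had -0.205, -0.105, -0.98 and -0.60, with the treated channel above background on 2 of the 4 arrays. Myt01-013F08 had -0.205, -0.175, -0.615 and -0.67, and Myt01-013D09 had -0.285, -0.075, -0.555 and -0.615. As recomputed from the scanner intensities, CHP/E2 replicate 2 was 0.05 in Myt01-013F08 and 0.02 in Myt01-013D09. Replicate 1 of Myt01-016E07 was 0.01 as recomputed. The brighter Myt01-018D02 had -0.175, -0.205, -0.865 and -0.26, so that replicate 3 alone stood apart.

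Other members below vehicle were more even over the CHP/E2 arrays. Myt01-001H08 had -0.49, -0.20, -0.49 and -0.685 with CHP/E2, against 0.52, 0.165, -0.185 and -0.495 with CHP and -0.14, 0.18, 0.23 and 0.05 with E2. Its CHP arrays ran from well above to well below vehicle and averaged 0.00 ± 0.44 (SD, n = 4). Myt01-002H11 had -0.55, -0.21, -0.32 and -0.65 with CHP/E2, Myt01-013G05 had -0.325, -0.72, -0.255 and -0.335, and Myt01-013A03 had -0.545, -0.43, -0.28 and -0.26. As deposited, all 4 of these clones were 0.2 or more below vehicle on every CHP/E2 array. As recomputed from the scanner intensities, CHP/E2 replicate 2 was 0.12 in Myt01-001H08 and -0.02 in Myt01-002H11. Myt01-018B03 had -0.52, -0.575, -0.335 and -0.155 with CHP/E2 but 0.12, -0.82, 0.525 and 0.64 with CHP, where replicate 2 lay far below the other arrays.

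With the single treatments most members had arrays on both sides of vehicle, but their arrays spread less widely than those of all clones. Ratios of both signs were found over the 4 CHP arrays in 95 members, or 88.8%, against 76.1% of all clones, and over the 4 E2 arrays in 97, or 90.7%, against 76.3%. The limit on the mean favours such clones. The CHP/E2 arrays, where one sign was required, differed by more than 0.5 in 32 members, or 29.9%, against 52.4% of all clones. The CHP arrays did so in 50 members, or 46.7%, against 56.8% of all clones, and the E2 arrays in 40, or 37.4%, against 46.9%. At least 1 CHP array was past 0.5 in absolute value in 22 members, or 20.6%, against 43.7% of all clones, and at least 1 E2 array in 21, or 19.6%, against 32.5%. The limits on the CHP and E2 means leave out clones with large ratios, so these shares follow in part from the rule. In 19 members, or 17.8%, CHP replicates 1 and 2 had one sign and replicates 3 and 4 the other, as in 12.1% of all clones.

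All 4 CHP ratios were under 0.2 in absolute value in 16 members, or 15.0%, against 8.15% of all clones, and all 4 E2 ratios in 29, or 27.1%, against 14.4%. The limits on the CHP and E2 means favour such clones, so nothing is read from these shares. Both held in 4 members, which were chosen after their values were seen, and in 38 of all clones, or 2.09%. Myt01-007D02 had -0.285, -0.28, -0.19 and -0.265 with CHP/E2, between -0.05 and 0.075 with CHP and between -0.185 and 0.035 with E2. As recomputed from the scanner intensities, its CHP/E2 replicate 2 was 0.04. Myt01-016C05 had -0.32, -0.09, -0.40 and -0.395 with CHP/E2 and Myt01-019F07 had -0.095, -0.465, -0.14 and -0.10. Myt01-008E02, the only one of the 4 above vehicle, had 0.265, 0.12, 0.46 and 0.12. Myt01-007D02 and Myt01-016C05 were above background on all 12 arrays, whereas Myt01-008E02 was so on 6 and Myt01-019F07 on 0, with 5 of its 8 CHP/E2 spots below vehicle.

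**Figure D3:**
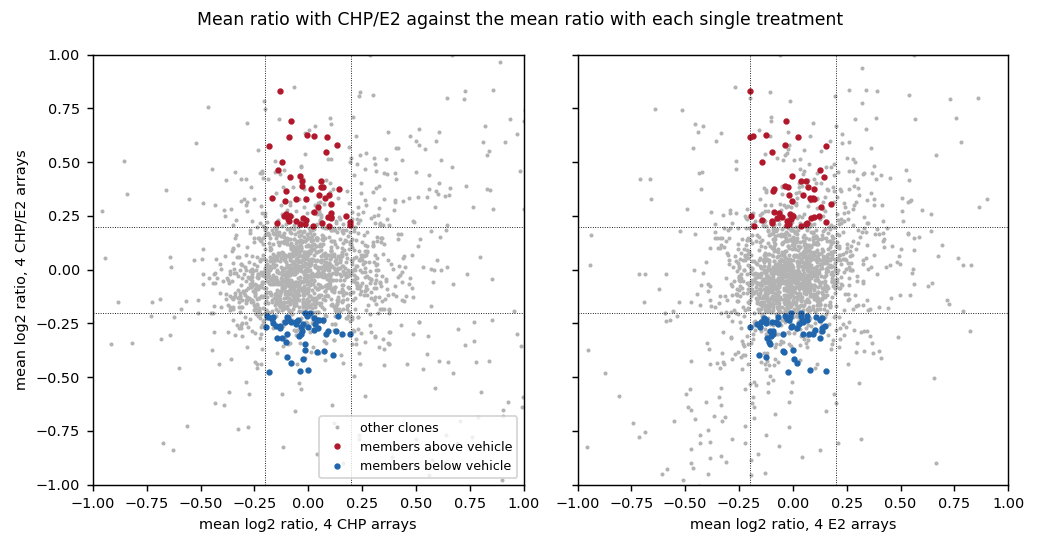
Mean deposited log2 ratio over the 4 CHP/E2 arrays (y axis) against the mean over the 4 CHP arrays (left) and the 4 E2 arrays (right), with 1 point per clone and dotted lines at the limits of -0.2 and 0.2. The axes stop at -1 and 1, and 87 clones with a mean beyond 1 in at least 1 treatment, none of them members, are not drawn in full. The members fill the central columns above and below the limits because the rule puts them there.

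In 7 members the 4 CHP/E2 ratios lay beyond all 8 ratios of the single treatments, as in 1.54% of all clones. Besides Myt01-010E04 and Myt01-007D02 these were Myt01-004E11, Myt01-009C07, Myt01-011E12 and Myt01-013C01 above vehicle and Myt01-014E01 below it. Myt01-004E11 had 0.27, 0.41, 0.28 and 0.59 with CHP/E2 and no single-treatment value above 0.22. Myt01-014E01 had -0.46, -0.14, -0.23 and -0.31, and its lowest single-treatment value was -0.105. CHP/E2 was clear of the 4 CHP arrays in 22 members (5.12% of all clones) and clear of the 4 E2 arrays in 27 (7.16% of all clones). The rule used these same arrays, so nothing is read from these shares.

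Some members lay on the CHP/E2 side of vehicle on all arrays of a single treatment and stayed under the limit by size alone. This was so for CHP in 9 members, or 8.41%, against 15.2% of all clones, and for E2 in 5, or 4.67%, against 14.6%. The limits on the CHP and E2 means leave out many clones with arrays all on one side. The low shares in this paragraph therefore follow in part from the rule. In Myt01-018A05 all 12 ratios were below vehicle, with means of -0.25 with CHP/E2, -0.16 with CHP and -0.13 with E2. Myt01-002H01 had means of 0.25, 0.18 and 0.12 in the same order. All 4 CHP arrays ran against CHP/E2 in 3 members (7.82% of all clones), Myt01-005B09, Myt01-011A02 and Myt01-015A08, and all 4 E2 arrays in 4 (7.93% of all clones), Myt01-006G07, Myt01-011E12, Myt01-015B08 and Myt01-017H07. The last of these had all 4 CHP/E2 and all 4 CHP ratios below vehicle and all 4 E2 ratios above it, with means of -0.32, -0.12 and 0.13. The mean of CHP had the direction of CHP/E2 in 61 of the 107 members, or 57.0%, against 54.7% of all clones, and that of E2 in 54, or 50.5%, against 58.7%.

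The differences between treatments were of the size of the CHP/E2 means. In the 52 members above vehicle, CHP/E2 minus CHP had a median of 0.33 with a range of 0.01 to 0.96, and CHP/E2 minus E2 a median of 0.32 with a range of 0.07 to 1.03. In the 55 below, the medians were -0.26 and -0.26. On the log2 scale the additive expectation is the sum of the CHP and E2 means. The departure of CHP/E2 from that sum had a median of 0.33 in the members above vehicle, with a range of -0.13 to 1.16. In those below, the median was -0.23, with a range of -0.59 to 0.08. The departure thus did not have the direction of the CHP/E2 mean in every member. The rule keeps the CHP and E2 means small, so the departure follows the CHP/E2 mean in part by construction. In single members the difference from CHP could be as small as 0.01 because the rule accepts a CHP mean just under the limit. Every comparison here rests on ratios to vehicle RNA, in part from vehicle pools of the same number. Those between treatments share the CHP/E2 arrays.

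With limma fitted to ratios recomputed from the scanner intensities over all 1816 clones, few members were called. A clone was called at B over 0, where B is the log-odds of a change given by the empirical Bayes statistics. CHP/E2 against vehicle called 2 members, both above vehicle, and 0.771% of all clones. They were Myt01-005C09, with a recomputed log2 ratio of 0.40 ± 0.06 (SE), and Myt01-010G04, with 0.27 ± 0.05 and deposited CHP/E2 ratios of 0.185, 0.59, 0.205 and 0.34. Myt01-010G04 lost its call without any single one of the 4 CHP/E2 arrays, and also without E2 replicate 1 or E2 replicate 2, whereas Myt01-005C09 kept it. An unadjusted p under 0.05 was found in 60 members, against 12.7% of all clones, with 37 above (8.2% of all clones) and 23 below (4.46%). A Benjamini-Hochberg adjusted p under 0.05 in limma was found in 1 member, Myt01-005C09, and 0.33% of all clones. That fit took arrays of one treated pool number as separate. The adjusted p of Myt01-005C09 in limma was 0.016 there and 0.12 with such arrays averaged. It was 0.125 with a replicate block and 0.062 with the slide as a random block. Without CHP/E2 replicate 1, 2, 3 or 4 it was 0.075, 0.031, 0.061 and 0.085. On the deposited ratios, limma also called 2 members, and 18 of all clones. These members were Myt01-005C09 and Myt01-017B12 but not Myt01-010G04. With print-tip loess limma called Myt01-005C09, Myt01-010E04 and Myt01-017B12, and 21 of all clones. The recomputed ratios come from the same arrays as the deposited ratios that chose the members, so nothing is read from these counts.

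For the differences, limma called 0 members. CHP/E2 minus CHP called 0.165% of all clones, and an unadjusted p under 0.05 was found in 19 members and 13.6% of all clones. CHP/E2 minus E2 called 0.33% of all clones, and the unadjusted count was 25 members and 8.87% of all clones. For the departure from additivity these were 0.551% of all clones called, and 14 members and 13.5% of all clones at an unadjusted p under 0.05. For CHP against vehicle limma called 0 members and 2.15% of all clones (unadjusted, 5 members and 21.8%), and for E2 against vehicle 0 members and 0.441% (unadjusted, 2 members and 8.37%). A difference that misses the threshold does not show that the treatments acted alike on a clone. When CHP replicate 2 was left out, Myt01-018B03 was called for CHP/E2 minus CHP at -0.55 ± 0.09 (SE), with 20 of all clones called. It was then also called for CHP against vehicle at 0.38 ± 0.07, with 52 of all clones called. When CHP replicate 3 was left out, Myt01-010G04 was called for CHP/E2 minus CHP at 0.39 ± 0.07, with 5 of all clones called. Without CHP/E2 replicate 2, Myt01-005C09 was called for CHP/E2 minus E2 at 0.45 ± 0.09, with 7 of all clones called.

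Membership depended on how the ratios were made. The deposited and recomputed ratios correlated at 0.881 to 0.979 on the 12 arrays, and the recomputed CHP/E2 mean of all 107 members had the direction of the deposited one. The recomputed ratios were smaller, with a median of 0.24 for the members above vehicle and -0.17 for those below. One sign on all 4 CHP/E2 arrays held in 71 members, 43 above and 28 below (17.6% of all clones, for the direction of their deposited mean). An absolute mean of at least 0.2 held in 54 (21.4% of all clones). The recomputed CHP mean stayed under 0.2 in 99 members (70.8% of all clones) and the E2 mean in 106 (83.15%). These ratios come from the arrays that chose the members, so these counts follow in part from the rule. All parts of the rule held in 38 members, 23 above and 15 below, out of 65 clones that met it on recomputed ratios.

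**Figure D4:**
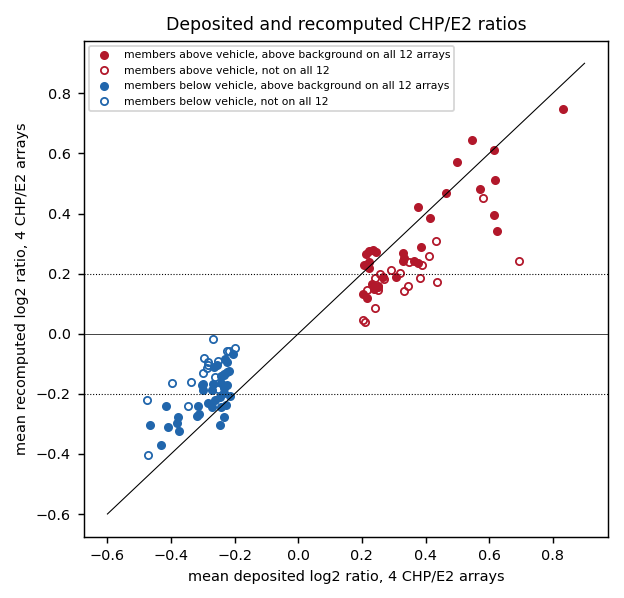
Mean CHP/E2 log2 ratio recomputed from scanner intensities (y axis) against the mean of the deposited ratios (x axis) for the 107 members, with the line of equal values and dotted lines at -0.2 and 0.2. Filled points are the 68 members above background on all 12 arrays, and most open points lie nearer to 0 than the line.

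The rule did not use the brightness of a spot, and brighter clones, members or not, kept more of their size when recomputed. A clone counted as above background when either channel exceeded the local background by 2 of its SDs. This held on all 12 arrays for 68 members, or 63.6%, against 57.1% of all clones. It held on none of the arrays for 7 members and for 147 of all 1816 clones. The 68 had a median absolute CHP/E2 mean of 0.27 as deposited and 0.24 as recomputed, whereas the other 39 had 0.29 and 0.16. Over all clones these were 0.15 and 0.12 for those above background on all 12 arrays and 0.11 and 0.05 for the others. The recomputation adds an offset of 50 to both channels, which by construction shrinks the ratios of dim spots most. Nothing is read from this difference. Both channels were above background on all 4 CHP/E2 arrays in 51 members, or 47.7%, against 42.35% of all clones. On the scale of percentiles of the vehicle channel, the members had a median of 55.5 against 50.5 for all clones, with 52.1 for those above and 62.0 for those below vehicle. Brightness of a spot depends on the clone as well as on its RNA and is no measure of transcript level between clones. The 2 spots of a member differed by a median of 0.09 on the log2 scale, against 0.11 for all clones. All 8 CHP/E2 spots had the direction of the mean in 70 members, or 65.4%, against 12.9% of all clones. The rule asks for one sign on the averages of these spots, so this share follows in part from the rule.

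The members varied little together over the arrays. Deviations from the mean of each treatment were correlated over the 12 arrays for every pair of members, and the median r was 0.05 between members above vehicle, 0.03 between members below and -0.05 between the groups, against 0.00 for pairs of all clones. These are descriptions over 12 arrays that share, in part, vehicle pool numbers and slides. The scan names place CHP/E2 replicate 3 and E2 replicate 3 on the same slide, the only slide that held CHP/E2 with a single treatment. There the CHP/E2 ratio minus the E2 ratio had the direction of the member in 94 of the 107, or 87.9%, against 66.9% of all clones for the direction of their own CHP/E2 mean. The rule used both arrays, and this slide holds 1 array of each treatment and allows no test.

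Members above and below vehicle came in unequal shares from the source plates, as did the clones that met the CHP/E2 part of the rule alone. The clone IDs name 20 source plates. Of the 52 members above vehicle, 33 (63.5%) came from plates 1 to 10, against 17 of the 55 below (30.9%) and 50.1% of all clones. Before the limits on CHP and E2 were applied, the same plates held 108 of the 161 clones above vehicle and 50 of the 124 below. Plates 13 to 18, a range picked after the values were seen, gave 27 of the members below vehicle (49.1%) and 9 of those above (17.3%), against 30.3% of all clones. Plate 13 alone held 7 members below and 1 above, among them Myt01-013C08, Myt01-013F08, Myt01-013G05, Myt01-013D09 and Myt01-013A03, and plate 8 held 5 above and 0 below. The deposited CHP/E2 mean of all clones also differed by plate, with a median of 0.01 on plates 1 to 10 and -0.06 on plates 11 to 20, and the recomputed one with 0.01 and -0.02. The part of the source plate in the members' ratios was not tested.

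**Figure D5:**
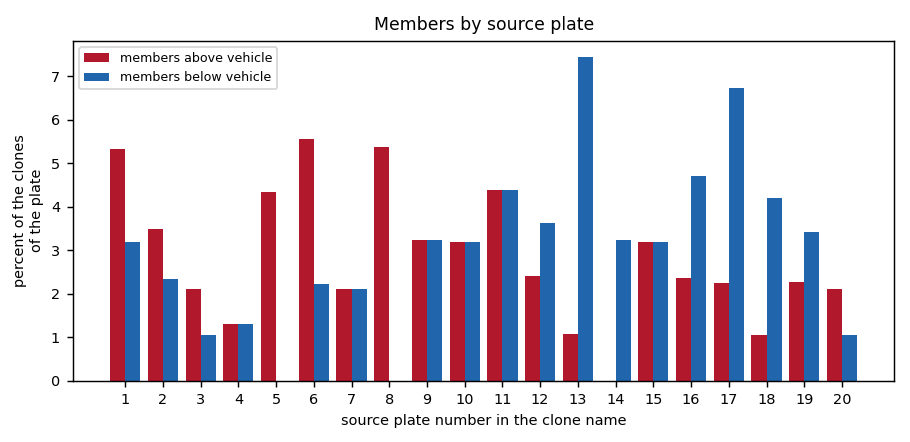
Percent of the clones with a deposited value on each of the 20 source plates (x axis, the number in the clone ID) that were members above or below vehicle (y axis). Plates 5 and 8 held 4 and 5 members above vehicle and 0 below, plate 13 held 1 above and 7 below, and plate 17 held 2 above and 6 below.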

How the data were processed

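RNA of digestive gland was measured on 12 dual color cDNA arrays with 1920 clones on 2 spots each. The log2 ratios of treated to vehicle RNA, as deposited by the authors after pre-processing with limma, give 1816 clones a value, and 104 other clones enter only a count in the closing section. The normalization of the ratios beyond limma, and its version, are not given in the sources used here. The intensities of the scanner files are, per the file headers, mean spot and median local background signals. Dyes were taken from the labels. The 2 spots of a clone were averaged. The rule was applied to the deposited ratios with a limit of 0.2.

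For the tests, ratios were recomputed from the intensities with normexp (offset 50) and loess within arrays, with 720 alignment and blank spots at weight 0, and the 3 arrays with exchanged dyes were turned. Then lmFit and eBayes (limma 3.58.1 in R 4.3.3, statmod 1.5.0) were run on 12 arrays with 3 coefficients and 6 comparisons, with calls at B over 0 and a prior proportion of 0.01. The tests are two-sided, p-values were adjusted over all clones by Benjamini-Hochberg, and they measure only the spread between these arrays. The fit was tested on simulated data.

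The members and lists were chosen with earlier results of these data known. Named were the 10 members farthest above and the 10 farthest below vehicle, those beside each limit, those called, and those with the largest and smallest SD. Gene lists and tissue markers were planned but could not be applied to clone IDs. Alternatives changed the limit, spots, ratios, normalization, blocks, clones tested and arrays. Depth is the signal over background, at 62.9% to 85.7% of clone spots above background per array.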

Additional observations from a re-analysis of the deposited data

Results flagged for a closer look

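Each of the 22 named members was examined in its 3 treatments for an array far from the other arrays of its treatment, by the gap to the nearest one as a share of the range. The cutoff flags about 1 in 20 groups of independent, normally distributed values. The members were named by these same ratios, and some arrays share a treated pool number, so that rate does not apply here. Of 66 groups, 5 were flagged. With CHP/E2, replicate 4 of Myt01-019H05 had a log2 ratio of 2.3 where the other arrays lay between 0.065 and 0.335, and replicate 3 of Myt01-018D02 had -0.865 where the others lay between -0.26 and -0.175. With CHP, replicate 2 of Myt01-009E04 had -0.53 against 0.0 to 0.025 on the other arrays, and replicate 2 of Myt01-008C11 had 0.32 against 0.005 to 0.05. With E2, replicate 3 of Myt01-013C08 had 0.565 against -0.02 to 0.06.

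Outside the clones with deposited values, 10 of the 104 clones without one met the rule on ratios recomputed from the scanner intensities, 7 above and 3 below vehicle. This is 9.62% of them, against 3.58% of the 1816 clones with a deposited value, and the difference was not tested.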

How the results depend on the processing

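The number of members was 65 on ratios recomputed from the scanner (38 of the 107 among them), 37 without background correction (18 shared), 41 with median centring (12 shared) and 68 among clones above background on all 12 arrays. Chosen after seeing the data, Cy5 arrays alone gave 209 (83 shared), and asking for every single CHP and E2 ratio to be under 0.2 gave 4. Leaving out 1 array gave 96 to 187, the highest without CHP/E2 replicate 4. Averaging arrays of one treated pool number gave 160 (97 shared). Limits of 0.15 and 0.25 gave 124 and 95 members. Members called for CHP/E2 against vehicle numbered 0 with median centring, where 15 of all clones were called. The number was 1 with arrays of one treated pool number averaged (5 of all clones). It was also 1 among clones above background on all 12 arrays (11 of those clones). At a Benjamini-Hochberg adjusted p under 0.05 it was 1 as well (6 of all clones). Leaving out 1 array gave 1 to 2 for CHP/E2 against vehicle and 0 to 1 for CHP/E2 minus CHP, CHP/E2 minus E2 and CHP against vehicle. Over all clones these fits called 8 to 14, 2 to 20, 2 to 9 and 22 to 52, in the same order. CHP/E2 minus CHP called 1 member without background correction (5 of all clones) and 1 with a dye term (8 of all clones). The causes were not tested. Same-numbered arrays of different treatments were not uniformly alike: their deviations correlated at -0.453 to 0.605. The best match in another treatment had the same number in 6 of 24 cases. Replicates 1, 2 and 3 of CHP/E2 and E2, which shared vehicle pool numbers, correlated at 0.429, -0.22 and 0.133. The vehicle pool number was not used in any fit. A replicate block called 1 member for CHP/E2 against vehicle (10 of all clones). The slide as a random block called 2 (13 of all clones). The 20 members farthest from vehicle, Myt01-010G04 and Myt01-008C11 kept the sign of their CHP/E2 mean on all 3 kinds of scanner ratios; other members were followed only on the recomputed ratios of the main tests. Arrays with little signal over background, the exchanged dyes on 1 CHP/E2 array and the number of arrays limit these values.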
